A study of Homo sapiens with 12 samples.

Results

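The response of T47D-MTVL cells to the synthetic progestin R5020 was compared between cells with a control siRNA (siCt) and cells with an siRNA against CHD8 (siCHD8). T47D-MTVL is a human breast cancer line, derived from T47D, that expresses the progesterone receptor and carries 1 copy of the MMTV promoter. All 4 groups were held without serum for 48 h: siCt with the ethanol vehicle (EtOH), siCt with 10 nM R5020, siCHD8 with vehicle and siCHD8 with 10 nM R5020, each for 6 h. Every group had 3 arrays, named biological replicates in the sample labels, so that all 12 arrays of the series were used. The RNA is described as isolated in triplicate, and nothing says that the arrays came from separate cultures, so the p-values measure the spread between these arrays. For every probe set with a gene symbol, 21214 of the 33297 in the table, the log2 response in siCt (R5020 minus vehicle) was subtracted from the log2 response in siCHD8. A value below 0 is a smaller rise or a larger fall with less CHD8, and a value above 0 is a larger rise or a smaller fall. A single siRNA was used in a single line, and no other siRNA was hybridised.

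Progestins bind the progesterone receptor, a nuclear receptor that then occupies hormone response elements, mostly in enhancers far from gene starts, and recruits coregulators and chromatin remodelling complexes. CHD8 is a remodelling ATPase of the chromodomain helicase family, known as a regulator of beta-catenin and p53 target genes. In breast cells, progestins induce metabolic, secretory and cytokine receptor genes and repress many genes of the luminal and estrogen programmes.

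The sequences just upstream of the annotated starts of LIFR, TGFBR3 and TIPARP, the genes by which the comparison is marked, are shown because the progesterone receptor reads the DNA letters TGTTCT or TGTCCT, as such or on the other strand. Each run is 250 bases long, ends at the base before the start and reads 5′ to 3′ in the direction of the gene (RefSeq, GRCh38.p14), and capitals mark a match to these letters. The LIFR window lies at chr5:38557468-38557717 on the minus strand, the TGFBR3 window at chr1:91886152-91886401 on the minus strand and the TIPARP window at chr3:156674340-156674589 on the plus strand.
LIFR: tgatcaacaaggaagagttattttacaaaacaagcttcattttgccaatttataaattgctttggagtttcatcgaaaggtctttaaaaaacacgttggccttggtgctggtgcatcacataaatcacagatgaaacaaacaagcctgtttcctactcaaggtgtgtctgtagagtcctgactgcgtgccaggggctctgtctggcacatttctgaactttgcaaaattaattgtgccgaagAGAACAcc
TGFBR3: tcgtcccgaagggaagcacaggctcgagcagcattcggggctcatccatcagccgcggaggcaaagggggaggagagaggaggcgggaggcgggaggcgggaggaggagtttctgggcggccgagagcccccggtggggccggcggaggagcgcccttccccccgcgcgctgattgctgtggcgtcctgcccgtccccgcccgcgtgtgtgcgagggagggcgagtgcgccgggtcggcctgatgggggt
TIPARP: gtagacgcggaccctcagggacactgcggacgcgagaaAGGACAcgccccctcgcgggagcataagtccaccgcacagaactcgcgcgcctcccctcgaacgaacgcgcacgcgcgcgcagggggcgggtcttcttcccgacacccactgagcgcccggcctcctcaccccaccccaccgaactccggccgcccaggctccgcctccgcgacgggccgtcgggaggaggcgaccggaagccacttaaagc
The LIFR window holds AGAACA beginning 8 bases before the start, the TIPARP window holds AGGACA beginning 212 bases before it, and the TGFBR3 window holds neither motif on either strand. LIFR and TIPARP each have 2 further annotated starts, whose windows hold neither motif, so for both genes the window printed is the one with a match. Among all 35116 RefSeq windows of this length, 23.7% hold at least 1 match, so that a match is a description of these letters and not of a binding site.

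The arrays had median log2 intensities of 4.52 to 4.62. R5020 against vehicle passed an adjusted p of 0.05 for 1719 probe sets higher (8.1%) and 1273 lower (6%) in siCt, and for 1281 higher (6.04%) and 1151 lower (5.43%) in siCHD8. The defining genes of the line, among them ESR1, PGR, GATA3, FOXA1, KRT8 and EPCAM, were brighter than 83.0% to 99.7% of the probe sets. Of 25 mesenchymal and fibroblast markers 19 lay below the median intensity, as did 15 of 15 blood and endothelial markers. The mean level of the mesenchymal list was between 3.14 and 3.39 per array over all groups and that of the blood list between 2.48 and 2.84. Replicate 3 of siCt with vehicle and replicate 1 of siCHD8 with vehicle fitted their groups least well, with array weights of 0.389 and 0.417 where the others had 0.596 to 1.61. Counts are therefore also given without these 2 arrays. CHD8 itself, the target of the siRNA, was lower in siCHD8 than in siCt by log2 differences of -0.58 with vehicle and -0.62 with R5020 (adjusted p = 0.0711 and 0.0627 from limma), with no overlap of the arrays. Its own response was -0.42 in siCt and -0.46 in siCHD8, a difference of -0.04 (95% interval -0.42 to 0.34).

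Most genes that R5020 induced had a smaller response in siCHD8 than in siCt, and no single gene passed the test of this difference over all probe sets. By limma 0 of 21214 probe sets had a difference of responses at an adjusted p under 0.05 (0%), and 2027 had an unadjusted p under 0.05 (9.56%), of which 990 lay below 0 (4.67% of those tested) and 1037 above 0 (4.89%). An unadjusted p under 0.01 was found for 420 (1.98%). With a trended and robust variance the count at the adjusted limit was also 0. The share of the 2027 that lay below 0 was 48.8%. After centring each array on its median it was 60.0% of 1989, and in a fit of the brighter probe sets alone 59.6% of 1351. The lowest adjusted p was 0.356, for LIFR. The difference had a median of 0.01 and ran from -0.42 at the 5th percentile to 0.43 at the 95th, with a median SE of 0.19. A difference over 1 in size was measured for 19 probe sets below 0 and 16 above 0.

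To describe the hormone genes, those whose mean response over both siRNAs exceeded 1.5-fold with an adjusted p below 0.01 were taken: 857 induced (4.04%) and 453 repressed (2.14%). With equal groups this mean and the difference are orthogonal contrasts, so the choice favours neither direction. Among the induced, 65.5% had a difference below 0 against 47.9% of all probe sets, with a median of -0.10. Here 103 had a smaller rise in siCHD8 at an unadjusted p under 0.05, 12% of the induced where 4.67% of all probe sets lay below 0 at that limit. Hormone genes are mostly bright, and 55.2% of the 10607 brighter probe sets had a difference below 0, against 64.2% of the 732 induced among them. At the unadjusted limit the shares of the brighter probe sets were 7.59% below 0 and 5.15% above. For the induced among them they were 12.6% and 3.28%. After quantile normalization 60.2% of the 797 induced lay below 0. Median centring gave 70.7% of 968 induced, with a median difference of -0.02 over all probe sets. With the values as deposited a larger rise was found for 24, or 2.80%, against a background of 4.89%. With the 2 vehicle arrays left out 917 were induced and 60.1% of them were below 0, with a median of -0.06. The smaller rises then numbered 88, or 9.60% against 3.40% of all probe sets, and the larger rises 29, or 3.16% against 3.60%. By the strength of induction, the median difference was -0.11 for a mean response under 1, -0.09 from 1 to 2 and -0.03 over 2.

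Among the repressed, the differences were balanced. A smaller fall in siCHD8 had an unadjusted p under 0.05 for 34 (7.51%) and a larger fall for 38 (8.39%), and the median difference was -0.02. This median was 0.0023 after quantile normalization and 0.07 without the 2 vehicle arrays, where the counts were 42 and 20 of 421 repressed (9.98% and 4.75%, against 3.60% and 3.40% of all probe sets). No gene of the 4 classes had responses of opposite sign in the 2 siRNAs. The limit on the mean response largely fixes this outcome. With such a mean, opposite signs need a difference over 1 in size, which only 19 probe sets below 0 and 16 above 0 had.

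**Figure D1:**
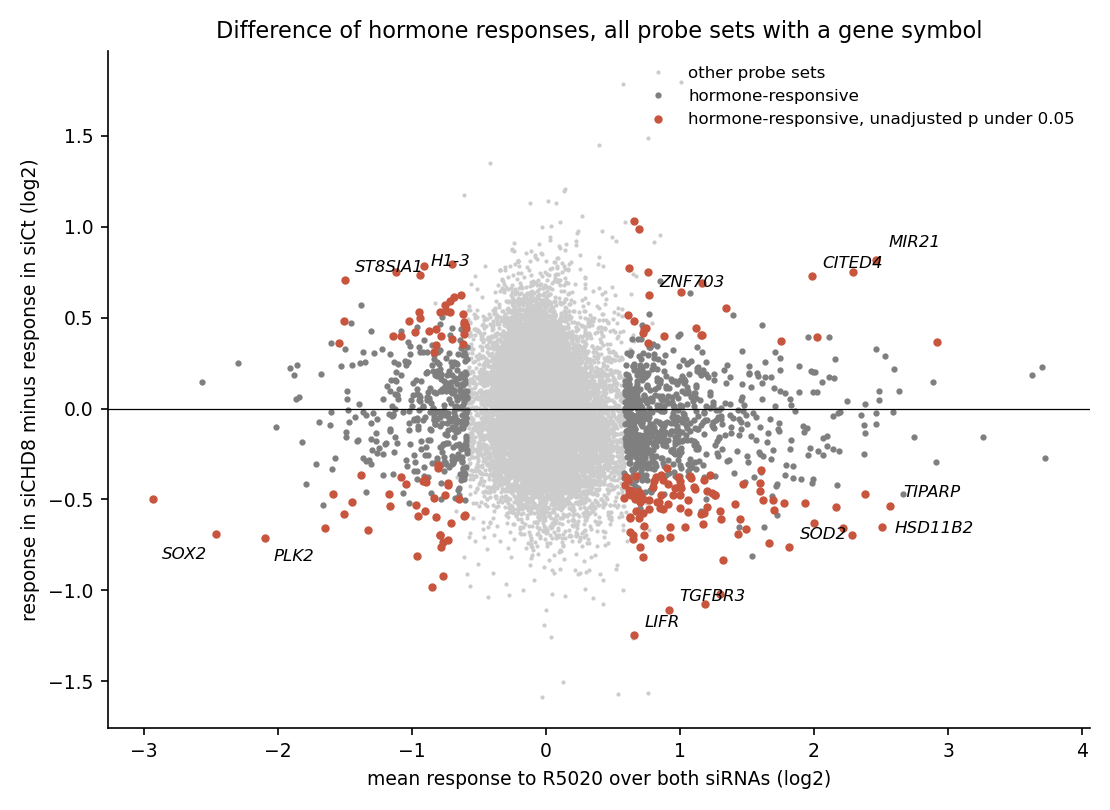
Each point is 1 of 21214 probe sets, with the mean response to R5020 over both siRNAs on the x axis and the response in siCHD8 minus the response in siCt on the y axis, both log2. Dark points are the 857 induced and 453 repressed probe sets and red points those of them with an unadjusted p under 0.05; on the induced side more red points lie below 0 (103) than above (24), and on the repressed side the numbers are close (34 above 0 and 38 below).

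LIFR, which encodes the receptor of leukemia inhibitory factor and signals together with gp130, gave the lowest p. Its log2 intensities in siCt were 2.92, 3.11 and 2.94 with vehicle and 4.14, 4.31 and 4.38 with R5020. In siCHD8 they were 3.62, 3.37 and 3.41 with vehicle and 3.83, 3.23 and 3.46 with R5020. The arrays were thus apart by treatment in siCt and overlapped in siCHD8, where vehicle arrays started higher and R5020 arrays ended lower than in siCt. The response was 1.28 in siCt (adjusted p = 1.28e-05 from limma) and 0.04 in siCHD8 (adjusted p = 0.928). The difference was -1.25 with a 95% interval from -1.67 to -0.82 (limma, unadjusted p = 1.68e-05 and adjusted p = 0.356). Leaving out siCHD8 R5020 replicate 1, the brightest of its group, made it -1.41 with an adjusted p of 0.0370, the only probe set to pass under any array left out. Over the other arrays left out in turn it stayed at or below -1.11. LIFR was dim, with a mean of 3.56 over the arrays, below the median of 4.59 over the probe sets tested. In siCt with vehicle LIFR lay below the mean level of the mesenchymal markers (3.27 to 3.39 per array). It lay above that of the blood and endothelial markers (2.68 to 2.75). Its rise in siCt thus started near the level of these marker lists.

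TGFBR3 encodes betaglycan, the coreceptor that presents TGF-beta and inhibin to the signalling receptors. In siCt it measured 2.07, 2.31 and 2.38 with vehicle and 3.84, 3.41 and 3.95 with R5020. With the CHD8 siRNA the intensities were 2.46, 2.32 and 2.26 with vehicle and 2.62, 2.92 and 2.59 with R5020. The vehicle arrays of the 2 siRNAs overlapped, and the R5020 arrays of siCHD8 all lay below those of siCt. The response was 1.47 in siCt and 0.37 in siCHD8, a difference of -1.11 with a 95% interval from -1.55 to -0.66 (limma, unadjusted p = 8.98e-05 and adjusted p = 0.476). The gene was dim, with a mean of 2.76 over the arrays.

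TIPARP, an ADP-ribosyltransferase that limits the aryl hydrocarbon receptor, is the strongly induced gene of the 3. It measured 6.96, 7.08 and 6.70 with vehicle and 9.76, 9.72 and 9.77 with R5020 in siCt. The siCHD8 arrays read 7.28, 7.02 and 7.13 with vehicle and 9.48, 9.47 and 9.38 with R5020. It rose in both siRNAs, by 2.84 in siCt and 2.30 in siCHD8, folds of 7.15 and 4.93. The difference of -0.54 (95% interval -0.88 to -0.19, unadjusted p = 0.00493, adjusted p = 0.490) was -0.36 without the 2 vehicle arrays.

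The 10 induced genes with the lowest p among those with a smaller rise were LIFR, TGFBR3 and 8 others, with differences from -1.25 to -0.60. SOD2, the mitochondrial superoxide dismutase, measured 4.33, 4.48 and 4.66 with vehicle and 6.67, 6.69 and 6.70 with R5020 in siCt. In siCHD8 the values were 4.56, 4.54 and 4.09 with vehicle and 5.68, 5.91 and 5.90 with R5020. Its vehicle arrays overlapped and its R5020 arrays were apart, and the rise of 2.20 in siCt was 1.43 in siCHD8 (difference -0.76, 95% interval -1.17 to -0.35). HSD11B2, the dehydrogenase that inactivates cortisol, measured 3.96, 4.08 and 3.96 with vehicle and 7.01, 6.75 and 6.74 with R5020 in siCt. With the CHD8 siRNA the intensities were 4.16, 4.06 and 4.44 with vehicle and 6.43, 6.43 and 6.33 with R5020. It too was apart with R5020 only, and rose 7.12-fold in siCt and 4.53-fold in siCHD8 (difference -0.65, 95% interval -1.01 to -0.29).

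USP7, a deubiquitinase of the p53 and MDM2 proteins, was bright and differed by -0.65 (95% interval -0.97 to -0.34), with responses of 1.25 and 0.60. SRGAP1, a GTPase-activating protein of the Slit and Robo pathway, had responses of 2.32 and 1.69. The tetraspanin CD9 had responses of 1.20 and 0.49 and ADPRM, a phosphatase of ADP-ribose, of 1.01 and 0.29. In CD9 the siCHD8 arrays lay above siCt with vehicle, by 0.68, and level with it with R5020, at -0.03. EPGN, which encodes the EGF receptor ligand epigen, had responses of 1.09 and 0.32 at a mean intensity of 1.73, the dimmest of these genes. That is below the mean level of the blood and endothelial markers on every array, and the same holds for TGFBR3 with vehicle, so that these folds start from a level that cannot be told from background. The organic cation transporter gene SLC22A4 had responses of 0.93 and 0.33.

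**Figure D2:**
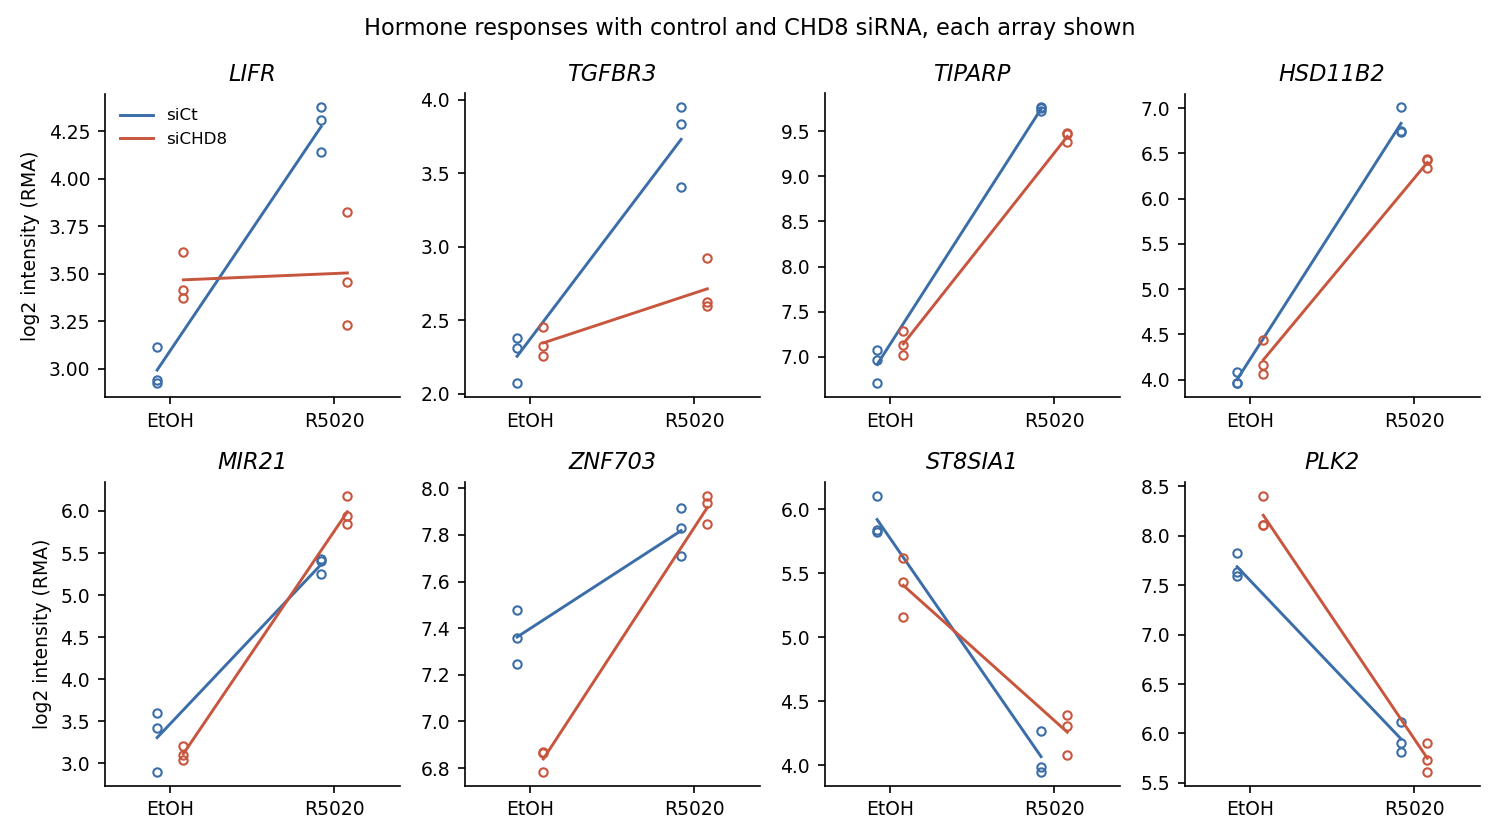
Log2 intensity (y axis) of 8 genes on each array with vehicle (EtOH) and R5020, circles for single arrays and lines joining the means of 3 arrays, blue for siCt and red for siCHD8. For LIFR and TGFBR3 the siCHD8 line is flatter than the siCt line, for TIPARP and HSD11B2 both lines are steep and the siCHD8 arrays with R5020 lie below, for MIR21 and ZNF703 the siCHD8 line is the steeper, and ST8SIA1 falls less and PLK2 falls more in siCHD8.

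A larger rise in siCHD8 was measured for fewer induced genes. The probe set of MIR21, the gene of the microRNA miR-21, measured 3.42, 3.60 and 2.90 with vehicle and 5.43, 5.41 and 5.25 with R5020 in siCt. The siCHD8 arrays read 3.10, 3.20 and 3.04 with vehicle and 6.18, 5.85 and 5.94 with R5020. The vehicle arrays overlapped and the siCHD8 arrays with R5020 all lay above those of siCt. The rise was 2.06 in siCt and 2.87 in siCHD8, a difference of 0.82 (95% interval 0.35 to 1.28, unadjusted p = 0.00202), and 1.01 without the 2 vehicle arrays. The array does not separate precursor from mature RNA, so this rise is not a measurement of the mature microRNA. The mature microRNA that the locus encodes (RefSeq, chr17:59841273-59841294, plus strand, GRCh38.p14) is shown with its seed, bases 2 to 8, in capitals.
hsa-miR-21-5p: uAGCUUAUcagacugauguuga
ZNF703, a transcriptional repressor of luminal breast cells, measured 7.25, 7.36 and 7.48 with vehicle and 7.92, 7.71 and 7.83 with R5020 in siCt. In siCHD8 the values were 6.78, 6.86 and 6.87 with vehicle and 7.94, 7.85 and 7.97 with R5020. Here the siRNAs were apart with vehicle and overlapped with R5020, and the rise was 0.46 in siCt and 1.08 in siCHD8 (difference 0.62, 95% interval 0.31 to 0.93). CITED4, a partner of the coactivators CBP and p300, rose 3.07-fold in siCt and 5.09-fold in siCHD8 (difference 0.73). EFCAB12 had responses of 0.82 and 1.51, SPATA33 of 0.69 and 1.33, and the nucleoside transporter gene SLC29A2 of 0.52 and 0.97.

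Among the repressed genes with a smaller fall was ST8SIA1, the synthase of the ganglioside GD3. It measured 5.83, 5.82 and 6.10 with vehicle and 4.26, 3.95 and 3.99 with R5020 in siCt. With the CHD8 siRNA the intensities were 5.43, 5.62 and 5.16 with vehicle and 4.31, 4.39 and 4.08 with R5020. The siCHD8 arrays were below siCt with vehicle and overlapped with it with R5020, and the response was -1.85 in siCt and -1.15 in siCHD8 (difference 0.71, 95% interval 0.28 to 1.14). A dimmer probe set of the gene, at a mean of 1.54, had a difference of 0.08. H1-3, a linker histone gene, had responses of -1.31 and -0.57 (difference 0.74, 95% interval 0.34 to 1.13) and the ceramide synthase gene CERS4 of -0.88 and -0.36. TRIM25, a ubiquitin ligase of antiviral signalling, had responses of -1.19 and -0.69, the cyclin gene CCNO of -1.04 and -0.47, and the sterol sulfotransferase gene SULT2B1 of -1.01 and -0.42. ID3, an inhibitor of helix-loop-helix factors, had responses of -0.99 and -0.38. In all of these the siCHD8 arrays lay below siCt with vehicle and overlapped with siCt with R5020. NR1D1, the clock repressor REV-ERB alpha, was the exception among the 8: its responses were -1.06 and -0.53, and its arrays were apart with R5020 only.

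The larger falls included PLK2, a polo-like kinase gene. It measured 7.59, 7.83 and 7.64 with vehicle and 5.90, 5.82 and 6.12 with R5020 in siCt. The siCHD8 arrays read 8.40, 8.11 and 8.11 with vehicle and 5.73, 5.91 and 5.61 with R5020. Its fall in siCt was smaller than in siCHD8, with responses of -1.74 and -2.45, a difference of -0.71 (95% interval -1.10 to -0.33), from a level with vehicle that was higher in siCHD8 on each array. RNF152, a ubiquitin ligase of the lysosome, had responses of -1.32 and -1.98 (difference -0.66), with arrays apart with R5020 only. The sterol esterifying enzyme gene SOAT1 had responses of -1.0 and -1.66. The growth factor gene PDGFC had responses of -0.40 and -1.17, the secreted stanniocalcin gene STC1 of -0.40 and -1.14, and the small GTPase gene RASL11B of -0.36 and -1.34; of these 3 responses in siCt, none passed an adjusted p of 0.05. SOX2, a pluripotency factor, had responses of -2.12 and -2.81, a difference of -0.69 (95% interval -1.15 to -0.24).

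The difference of responses equals the siRNA effect (siCHD8 minus siCt) with R5020 minus that with vehicle. Both effects are given for the 4 classes. Of the 103 induced genes with a smaller rise, 65 had the larger siRNA effect with R5020 and 38 with vehicle, with median effects of -0.32 with R5020 and 0.22 with vehicle. Of the 24 with a larger rise, 6 had the larger effect with R5020 and 18 with vehicle, with medians of 0.13 and -0.40. In the repressed classes the larger effect was with vehicle for 19 of 34 with a smaller fall and for 22 of 38 with a larger fall. Over all 857 induced the median effects were -0.13 with R5020 and -0.03 with vehicle, and over all 453 repressed -0.01 and -0.02. The 4 classes were chosen by this difference, and the same split was not counted over all probe sets. The median responses of these classes were 1.21 in siCt and 0.71 in siCHD8 for a smaller rise, 0.68 and 1.26 for a larger rise, -1.02 and -0.52 for a smaller fall, and -0.65 and -1.17 for a larger fall. The siRNA effect with R5020 passed an adjusted p of 0.05 for LIFR (-0.77, adjusted p = 0.0443 from limma), TGFBR3 (-1.02, adjusted p = 0.0165), SOD2 (-0.86, adjusted p = 0.0237) and RNF152 (-0.82, adjusted p = 0.0165). That with vehicle passed for CD9, ZNF703 (-0.52, adjusted p = 0.0498) and H1-3 (-0.69, adjusted p = 0.0480). Over all probe sets 33 were lower (0.156%) and 7 higher (0.033%) in siCHD8 with R5020, and 38 were lower (0.179%) and 24 higher (0.113%) with vehicle.

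**Figure D3:**
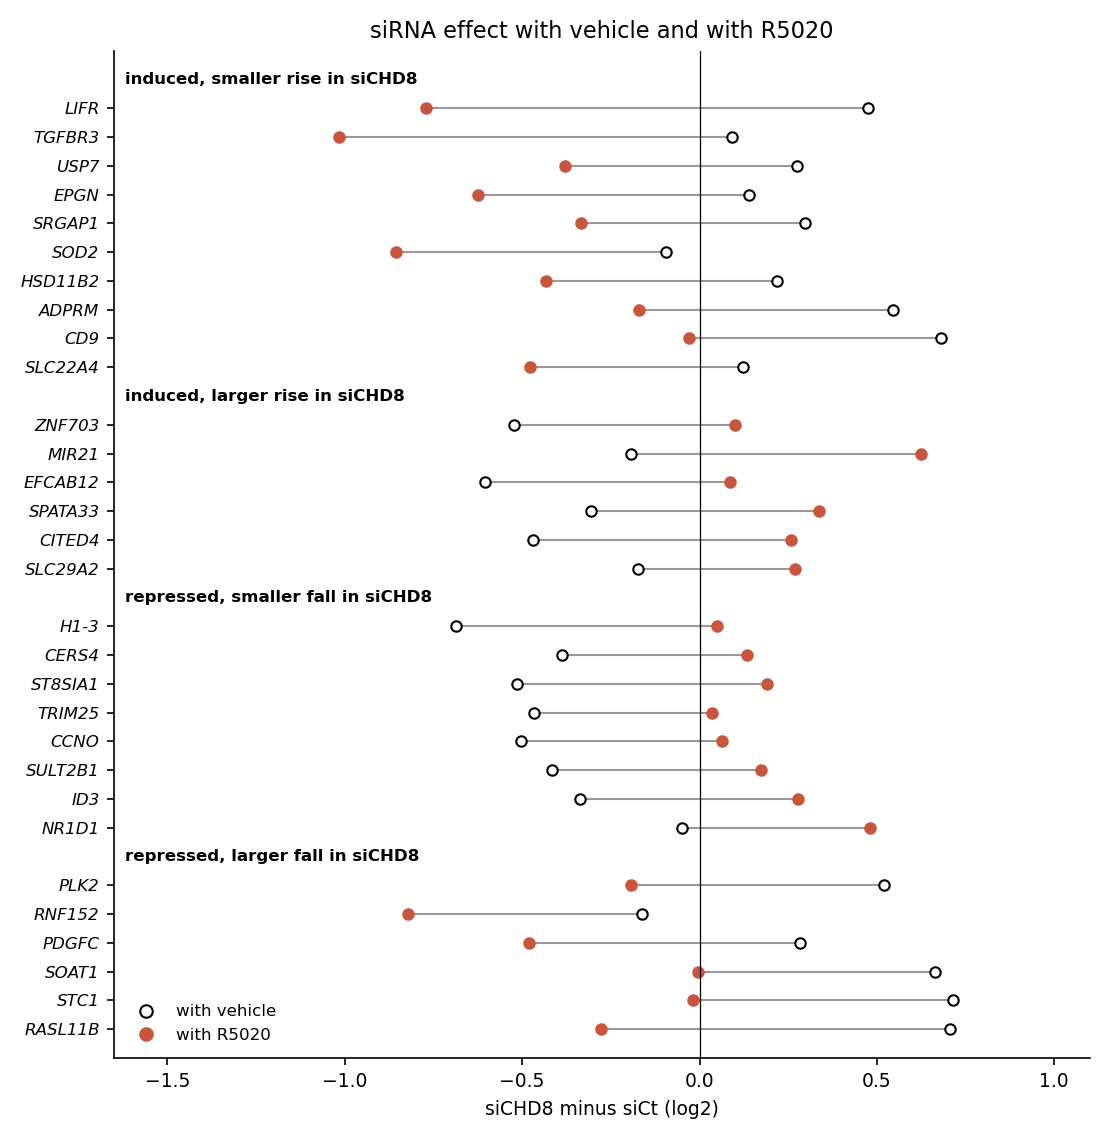
For the 30 named hormone genes of the 4 classes, the x axis gives siCHD8 minus siCt (log2, means of 3 arrays) with vehicle (open circles) and with R5020 (red circles); the bar between them is the difference of responses. For TGFBR3, SOD2, EPGN, RNF152 and NR1D1 the circle with R5020 lies farther from 0, and for CD9, ZNF703, H1-3, SOAT1 and STC1 the circle with vehicle does.

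Genes without a mean response can differ too, since responses of opposite sign cancel. Among the brighter probe sets, AMZ2P1, a pseudogene whose probes may also read its parent gene, measured 5.65, 5.90 and 5.77 with vehicle and 6.04, 6.00 and 6.17 with R5020 in siCt. In siCHD8 the values were 6.22, 6.04 and 6.21 with vehicle and 5.65, 5.62 and 5.63 with R5020. R5020 arrays were above vehicle in siCt and below it in siCHD8, with responses of 0.30 and -0.52 (difference -0.82, 95% interval -1.14 to -0.51, unadjusted p = 5.98e-05, adjusted p = 0.423). RRAGD, a Rag GTPase that links amino acids to mTORC1, had responses of 0.51 and -0.16, from a vehicle level that was 0.79 higher in siCHD8 (adjusted p = 0.00401 from limma). ENC1, an actin-binding kelch protein, had responses of 0.40 and -0.34, the endosomal protein gene ZFYVE16 of 0.54 and -0.16, and RAP1GDS1, a partner of small GTPases, of 0.38 and -0.36. On the other side, MIIP, an inhibitor of cell migration, had responses of -0.23 and 0.57 (difference 0.79, 95% interval 0.45 to 1.13). COX6B1, a subunit of cytochrome c oxidase, had -0.29 and 0.43, the vesicle tethering gene TRAPPC14 -0.38 and 0.37, the small nucleolar RNA gene SNORD104 -0.02 and 0.82, and NPDC1 -0.44 and 0.20.

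Further hormone genes of interest had differences between -0.65 and -0.25. IL6ST, which encodes gp130, measured 7.62, 7.99 and 7.42 with vehicle and 9.88, 9.74 and 9.98 with R5020 in siCt. With the CHD8 siRNA the intensities were 7.98, 7.89 and 7.87 with vehicle and 9.52, 9.66 and 9.59 with R5020. It rose 4.58-fold in siCt and 3.19-fold in siCHD8 (difference -0.52, 95% interval -0.92 to -0.12, unadjusted p = 0.0145). The difference of IL6ST was -0.36 without the 2 vehicle arrays (unadjusted p = 0.0660 from limma). NFE2L3, a CNC-family transcription factor, had responses of 1.95 and 1.30, and the difference of -0.65 (95% interval -1.33 to 0.03, unadjusted p = 0.0595) was -1.04 without the 2 vehicle arrays and -0.37 without siCHD8 EtOH replicate 3. The phosphatase gene DUSP1 had responses of 1.32 and 1.07 (95% interval of the difference -0.63 to 0.12). The probe set shared by FKBP5, an immunophilin of the receptor complex, and LOC285847 had responses of 3.05 and 2.76 (-0.67 to 0.08), and its difference of -0.29 was -0.13 without the 2 vehicle arrays. PGR, the progesterone receptor gene, had -1.23 and -1.50 (-0.60 to 0.05).

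Gene lists were read with 1 probe set per gene, over 18418 genes of which 4.9% lay below 0 and 4.84% above 0 at an unadjusted p under 0.05, with a median difference of 0.01. These shares were 3.52% and 3.58% without the 2 vehicle arrays. Lists of bright genes are to be read beside the 10607 brighter probe sets. Of those, 7.59% lay below 0 and 5.15% above at the unadjusted limit, and 55.2% had a difference below 0. Of 111 named genes with an unadjusted p under 0.05, 31 did not have one without those arrays, namely IL6ST, PER1, SMAD2, TSC2, JUN, EGR4, HEY2, FZD3, E2F1, AURKA, CDK1, KIF11, SESN1, KAT2B, INSIG1, NSDHL, MT1E, LOX, EGLN3, DDIT3, SDF2L1, DNAJB4, IRF7, XAF1, CLOCK, CIART, SLC36A4, SLC38A10, SGMS2, H2BC14 and H1-5. Among the progestin and glucocorticoid receptor targets, 34 were measured: 18 were induced and 3 repressed on the mean response, and 3 had a difference below 0 at this limit and 1 above, with a median of -0.03. The 3 were HSD11B2, IL6ST and SERPINA3, a serine protease inhibitor, whose responses were 0.70 in siCt and -0.13 in siCHD8. PER1, a clock gene, was above 0, with 0.28 and 0.72. For the 20 genes of gp130 receptors and STAT signalling 4 lay below 0 and 1 above, with a median of -0.17. Besides LIFR and IL6ST they included PTPN11, the phosphatase SHP2 (responses 0.10 and -0.24), and the 1 above was SOCS1, a feedback inhibitor of the pathway (-0.21 and 0.43). Without the 2 vehicle arrays the counts were 3 and 1 and the median -0.24.

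Of 39 ligands, receptors and SMADs of the TGF-beta family 5 lay below 0 and 2 above, and without the 2 vehicle arrays 1 and 3. TGFBR3 and the signal transducer SMAD2 (responses 0.11 and -0.44) were below, and ID3 and the latency protein gene LTBP2 (-0.35 and 0.33) above. For the 24 EGF receptor genes the counts were 1 and 2, with SPRED1, an inhibitor of Ras signalling, below (0.85 and 0.38) and GRB7, an adaptor of HER2 (-0.78 and -0.27), and SPRY1, a feedback inhibitor (-0.82 and -0.40), above. Among 24 insulin and IGF genes the mTOR subunits DEPTOR (0.31 and -0.33) and RICTOR (0.08 and -0.41) were below and TSC2 (-0.15 and 0.25) above. The 33 immediate early and AP-1 genes had 1 below and 5 above, with a median of 0.15 that was 0.06 without the 2 vehicle arrays. JUN was the 1 below (0.91 and 0.43), and IER3 (-0.27 and 0.16), ZFP36L2, an RNA-decay factor (-1.73 and -1.37), and EGR4 (-0.50 and 0.09) were among those above. The IER3 probe set has near copies, which gave 0.46 where it gave 0.43.

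With all arrays lipid genes stood mostly below 0, and without the 2 vehicle arrays fewer lay below it at the unadjusted limit. Of 33 cholesterol and fatty acid synthesis genes 11 were induced and 0 repressed. At the unadjusted limit 5 had a difference below 0 and 0 above. In all 75.8% lay below 0, against 48.9% of all genes and 55.2% of the brighter probe sets, with a median of -0.14. SC5D, which acts late in cholesterol synthesis, had responses of -0.10 and -0.76, NSDHL of 0.56 and 0.12, the regulator INSIG1 of 0.44 and -0.02, and the fatty acid elongase gene ELOVL5 of 1.18 and 0.74. Without the 2 vehicle arrays 2 were below 0 and 0 above, the median was -0.06, and the difference of SC5D was -0.38 in place of -0.65. Of 29 sphingolipid and ganglioside genes 7 lay below 0 and 4 above, with a median of -0.18. The sphingomyelin synthase gene SGMS2 (-0.52 and -1.12) was below, and CERS4, ST8SIA1 and the desaturase gene DEGS2 (-0.36 and 0.08) above. Without the 2 vehicle arrays the counts were 2 and 3 and the median -0.12.

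The 44 G1/S and DNA replication genes had 5 below 0 and 1 above, with 75% below 0 and a median of -0.11. POLA1, the catalytic subunit of DNA polymerase alpha, had responses of 0.40 and -0.31, GINS3 of 0.29 and -0.18, ORC1 of 0.37 and -0.13, and E2F1, the 1 above, of 0.10 and 0.47. The 37 mitosis genes had 3 below 0 (AURKA, CDK1 and KIF11) and 0 above, with a median of -0.14. The list is bright, with a median log2 intensity of 6.54, and 3 of 37 is near the 7.59% of the brighter probe sets. Without the 2 vehicle arrays none of the 37 had an unadjusted p under 0.05 and the median was -0.0027, and CDK1 moved from -0.84 to -0.30. The mean level of the mitosis list, relative to the 12 arrays, was 0.14 on siCHD8 EtOH replicate 1 and -0.11 and -0.17 on the other arrays of that group. On siCt EtOH replicates 1 to 3 it was 0.06, 0.26 and -0.04, so that both vehicle groups were spread. The G1/S counts without the 2 vehicle arrays were 3 and 1, with a median of -0.07.

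The stress lists also gave other values without these vehicle arrays. Of 31 hypoxia genes and collagen hydroxylases 15 were induced, and 4 lay below 0 and 0 above, with a median of -0.14. P4HA2, a collagen prolyl hydroxylase, rose by 2.62 and 2.15, the glucose transporter gene SLC2A1 by 1.38 and 0.98, and the lysyl oxidase gene LOX had responses of 1.37 and 0.72. EGLN3, an oxygen sensor, had -0.84 and -1.25. Of 27 heat shock and DNAJ genes 2 lay below 0, DNAJB6 (1.49 and 0.85) and DNAJB4 (2.63 and 1.94), and 0 above, with a median of -0.16. Their median log2 intensity was 7.04, and 2 of 27 is near the 7.59% of the brighter probe sets. The medians of these 2 lists were -0.02 and -0.04 without the 2 vehicle arrays, with counts of 2 below and 1 above, and 1 and 1. On siCHD8 EtOH replicate 1 the mean level of the heat shock list was 0.08, against -0.16 and -0.21 on the others of its group. On siCt EtOH replicates 1 to 3 it was -0.15, -0.02 and -0.19. Of 31 genes of the unfolded protein and ATF4 response, PSPH, a serine synthesis enzyme (-0.37 and -1.09), and DDIT3, which encodes CHOP (0.60 and -0.03), were below and SDF2L1 (-0.30 and 0.16) above. A second probe set of PSPH had a difference of -0.32. Of the 31, 1 lay below and 0 above without the 2 vehicle arrays, the median turned from -0.04 to 0.04, PSPH moved from -0.72 to -0.40 and DDIT3 from -0.63 to -0.32.

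**Figure D4:**
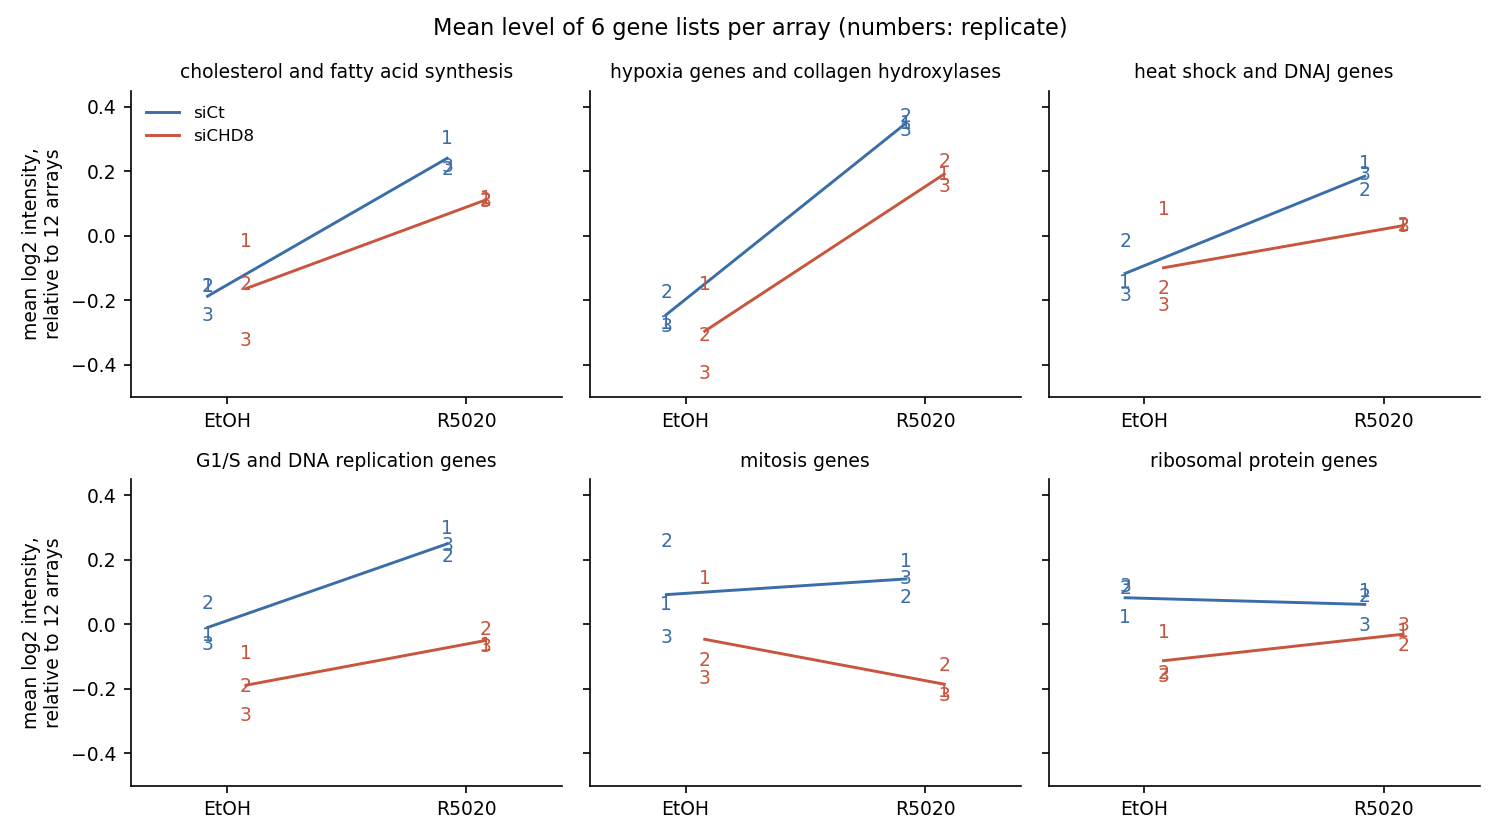
Mean log2 intensity of 6 gene lists on each array, relative to the mean of the 12 arrays (y axis), with vehicle and R5020 on the x axis; numbers are replicates, lines join group means, blue for siCt and red for siCHD8. In the mitosis and heat shock panels replicate 1 of siCHD8 with vehicle (0.14 and 0.08) stands above the others of its group. So does replicate 2 of siCt with vehicle (0.26 and -0.02) in its own group. The 3 siCHD8 arrays with R5020 lie close together in the cholesterol panel (0.11 to 0.12).

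The 48 ribosomal protein genes had 6 above 0 and 1 below, with a median of 0.15, which was the same without the 2 vehicle arrays (6 and 0). RPL38 had responses of -0.18 and 0.29, RPS24 of 0.28 and 0.80, RPS15 of -0.11 and 0.34, and RPLP1 of -0.23 and 0.14; such genes have many near copies, so single probe sets are uncertain. Of 27 luminal transcription factors and keratins 12 were repressed and 0 induced, with median responses of -0.51 in siCt and -0.39 in siCHD8. Here 0 lay below 0 at the unadjusted limit and 3 above: KRT7 (-0.48 and -0.01), KRT80 (-1.04 and -0.60) and KRT19 (-0.09 and 0.30). Of 44 histone genes 3 lay above 0, H1-3, H3C1 (-0.70 and -0.06) and H2BC14 (-0.28 and 0.24), and 1 below, H1-5 (0.19 and -0.24). Of 22 stemness genes SOX2 and the dim LGR5 lay below, and the aldehyde dehydrogenase gene ALDH1A3 (0.30 and 0.77) and HEY2 (-0.02 and 0.39) above. Of 21 clock genes 2 lay below, among them CLOCK (0.27 and -0.31), and 3 above, NR1D1, PER1 and CIART (-0.15 and 0.37). Of the clock genes 0 lay below and 1, NR1D1, above without the 2 vehicle arrays, and the median turned from -0.02 to 0.09.

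The remaining lists had few members at the limit. Of 33 interferon genes 2 lay below, USP18 (-0.22 and -0.93) and IRF1 (0.54 and 0.05), and 2 above, IRF7 (-0.34 and 0.21) and XAF1. Of 17 metallothioneins and zinc transporters the zinc exporter gene SLC30A1 (0.85 and 0.27) lay below and MT1E (-0.11 and 0.46) above, and of 25 amino acid transporters SLC36A4 (0.20 and -0.21) below and SLC38A10 (-0.28 and 0.02) above. Of 38 Wnt targets and receptors FZD3 (-0.09 and -0.62) and LGR5 lay below and 0 above. A single member lay below in the p53 targets (SESN1, -0.16 and -0.59, of 25), the integrins and junction genes (the gap junction gene GJB2, 1.61 and 1.0, of 32), the steroid receptors and coregulators (KAT2B, 1.04 and 0.68, of 23) and the aryl hydrocarbon receptor axis (TIPARP, of 11). A single member lay above in the interleukin-10 and interleukin-1 receptor chains (the dim IL1RL2, of 20), the mesenchymal markers (the dim ZEB2, of 25) and the blood and endothelial markers (NKG7, of 15). None lay beyond the limit in either direction among 17 Kruppel-like factors, 25 estrogen receptor targets, 10 CHD family members and 25 SWI/SNF subunits, whose median differences were -0.05, 0.01, -0.04 and 0.07. The lowest and the highest of these 77 members were -0.32 and 0.40. The highest was DPF1, a SWI/SNF subunit, which was 0.61 without the 2 vehicle arrays (unadjusted p = 0.00387 from limma) and 0.24 to 0.56 with each array left out in turn.

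**Figure D5:**
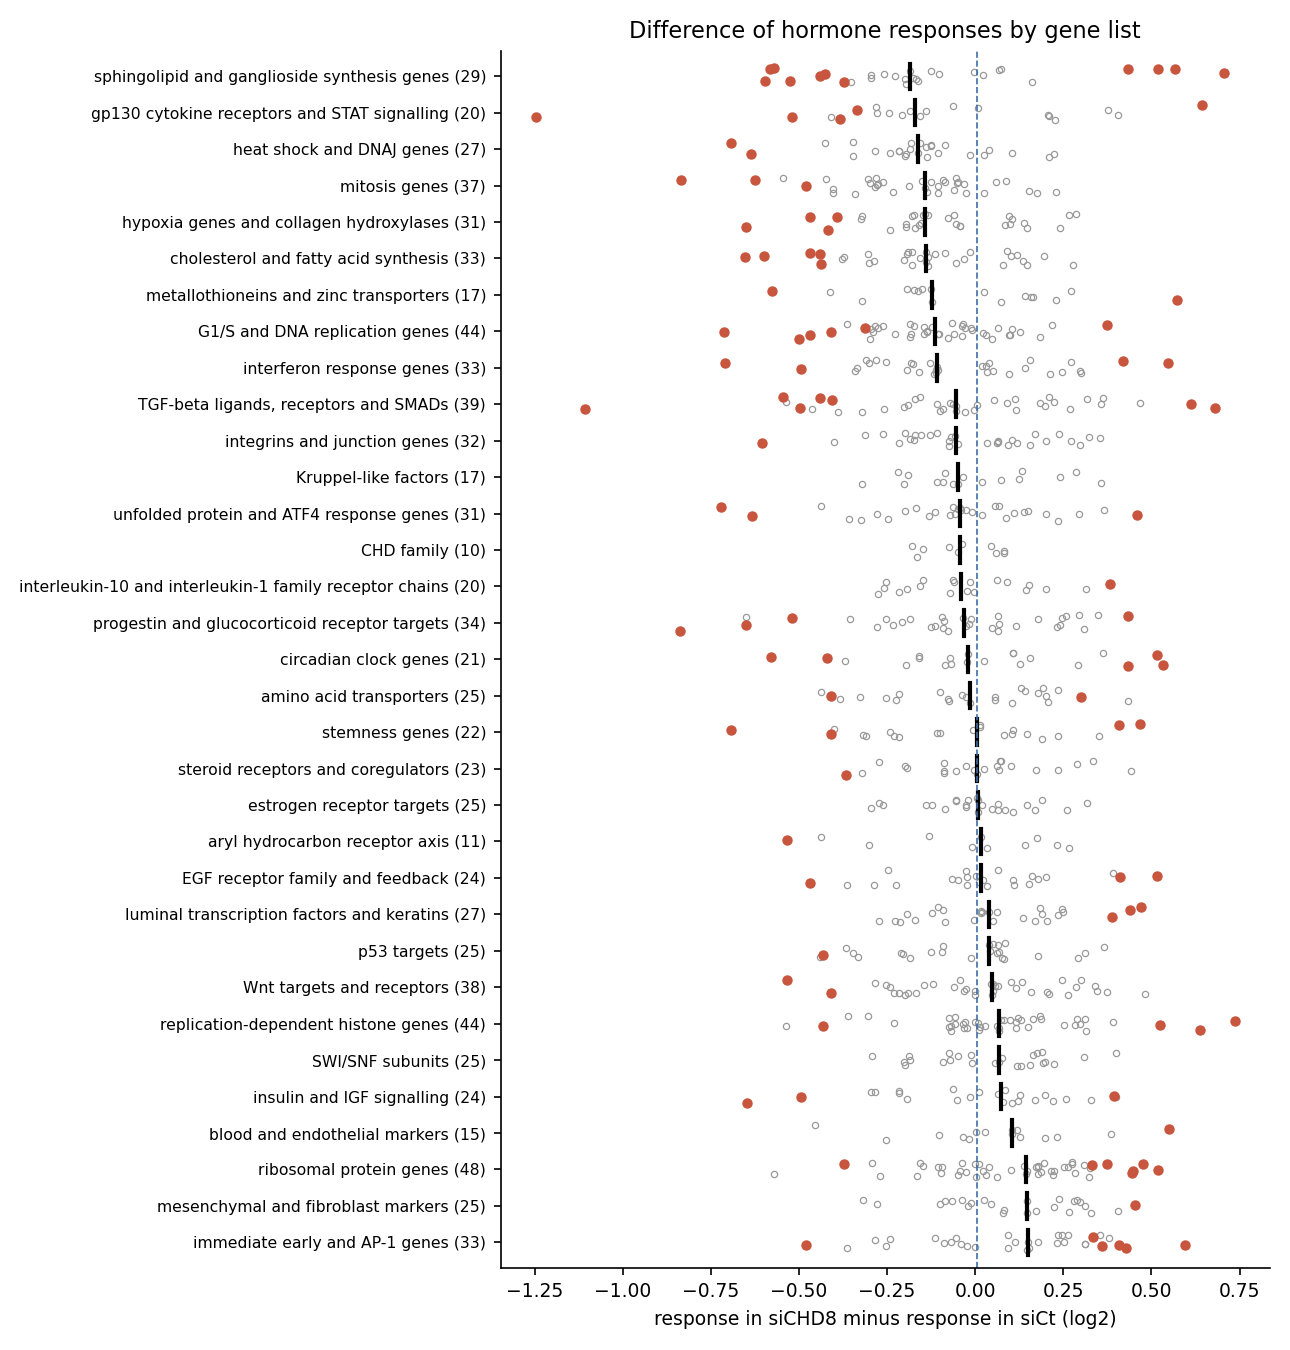
Each circle is 1 gene of the list named at the left (number measured in brackets), with the response in siCHD8 minus the response in siCt on the x axis (log2); red circles have an unadjusted p under 0.05, black bars are medians and the dashed line is the median of 18418 genes. Red circles lie to the left of 0 in the cholesterol, hypoxia, mitosis and heat shock lists and mostly to the right in the ribosomal protein and immediate early lists. In the mitosis and heat shock lists their share is near the 7.59% below 0 among the brighter probe sets.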

How the data were processed

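Affymetrix Human Gene 1.0 ST arrays were used, 1 for each of the 12 samples. The authors extracted the scans, normalized them by RMA and processed them with oneChannelGUI, and deposited log2 intensities per probe set. No versions are given in the sources used here. The values were used without further scaling. The number of arrays limits the precision. RMA draws all arrays to 1 distribution, so a shift of most genes cannot be seen. Of 33297 probe sets, 21214 carry a gene symbol in the platform annotation and were tested; 19461 have exactly 1 symbol, 1753 have several and 12083 have none. Of those with 1 symbol, 19429 matched RefSeq (GRCh38.p14), which gave names and sequences. A probe set with several symbols is named by all of them.

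All 12 arrays entered 1 model with a mean per group (lmFit, contrasts and eBayes of limma 3.58.1, R 4.3.3), and p-values were adjusted by Benjamini-Hochberg over the probe sets tested. Intervals are 95% intervals from this fit. The fit was tested on simulated data. Named were 163 genes, with 1 probe set per gene, the brightest. They were LIFR, TGFBR3, TIPARP, the genes whose expression the study measures, and genes with the lowest unadjusted p of the difference. The latter were 10, 6, 8 and 6 genes of the classes, 5 in each direction without a mean response, and up to 4 members of each of 33 lists. From the lists the text prints mostly members with p under 0.05. Members, lists, limits and the 2 vehicle arrays left out together were chosen with earlier results of these data known. Alternatives were other scalings, filters, variances, array weights, a replicate block, other limits and each array left out. Figures were drawn with matplotlib 3.10.9.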

Additional observations from a re-analysis of the deposited data

Results flagged for a closer look

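In 16 of 163 named genes the siRNAs went opposite ways, the 3 R5020 arrays lying all above or all below those with vehicle. The difference of responses did not pass an adjusted p of 0.05 in limma for any of them. Below 0 these were AMZ2P1 (a difference of -0.82), RRAGD (-0.67), ENC1 (-0.74), RAP1GDS1 (-0.74), PTPN11 (-0.33), DEPTOR (-0.65), POLA1 (-0.71) and GINS3 (-0.47), which lay higher with R5020 in siCt and lower with it in siCHD8. Above 0 they were MIIP (0.79), COX6B1 (0.72), TRAPPC14 (0.75), NPDC1 (0.63), LTBP2 (0.68), IER3 (0.43), RPL38 (0.48) and NKG7 (0.55), which lay lower with R5020 in siCt and higher with it in siCHD8. These genes were named for a low p of this difference, so the pattern is a description of them. Its share over all probe sets was not counted.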

How the results depend on the processing

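The count of probe sets with a difference of responses at an adjusted p under 0.05 was 0 under the alternatives that keep all arrays or leave out both vehicle arrays. With each array left out in turn it was 0 to 1, and the 1 was LIFR, at -1.41 (adjusted p = 0.0370 from limma) without siCHD8 R5020 replicate 1. The count at an unadjusted p under 0.05 was 1355 without siCt R5020 replicate 3 and 2799 without siCHD8 EtOH replicate 3, and 1351 of 10607 with dim probe sets left out. With each array left out, the smaller rises numbered 76 to 143, the larger rises 16 to 41, the smaller falls 21 to 43 and the larger falls 24 to 64. Without siCHD8 EtOH replicate 3 there were 41 larger rises and 64 larger falls, without siCHD8 EtOH replicate 1 there were 24 larger falls, and without siCHD8 R5020 replicate 1 or 2 there were 21 smaller falls. Without the 2 vehicle arrays there were 20 larger falls, and after median centring 21 smaller falls. With hormone genes at an adjusted p under 0.05 and no fold limit the 4 counts were 222, 69, 120 and 137, and at an unadjusted p under 0.01 of the difference 33, 8, 8 and 10. The cause of these moves was not tested, except that the last 2 settings and the filter change the limits or the number tested. The difference of CHD8 was -0.04 with all arrays and changed sign, to 0.0069 after quantile normalization, to 0.010 without the 2 vehicle arrays, and in 4 of the 12 fits with 1 array left out, which ranged from -0.11 to 0.079; its sign is not settled.

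No pairing of the samples by replicate number was visible. Deviations from the group means correlated between -0.25 and 0.20 for arrays with the same number and between -0.23 and 0.25 for different numbers. The labels do not say whether arrays with the same number were processed together. With the number as a replicate block, 0 probe sets passed an adjusted p of 0.05 (lowest 0.560) and 1839 an unadjusted p under 0.05. Of the single gene differences 6, all of CHD8, changed sign and 1, of LIFR, passed an adjusted p of 0.05, a limit that no other named gene reached under any setting, so that its calls say nothing of stability; at the unadjusted limit 31 of 111 named genes lost it without the 2 vehicle arrays. Of the list medians 118 values moved by more than the spread between replicates. EPGN and LGR5 had mean log2 intensities of 1.73 and 1.81, far below the median of 4.59 over the probe sets tested.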
